A study of Mus musculus with 10 samples.

Results

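Hair shaft keratins are the hard keratins of the hair fibre, and they were examined here in the skin of Tsk2 mice at 4 months and at 1 month of age. The genes were chosen by symbol: Krt31, Krt32, Krt33a, Krt33b, Krt34, Krt35, Krt36, Krt82, Krt85 and Krt86, 10 genes in all. Of these, 9 had a probe and so stood among the 19532 genes that a probe with 1 symbol names on the array. They had 11 probes, 7 of the 9 genes had enough values for the age test, and Krt33a and Krt82 had too few. Krt85 was not analysed here. Tsk2 mice have tight skin from a mutation in the collagen gene Col3a1 and serve as a scleroderma model, and the labels call them transgenic. Every skin sample of both ages carried the genotype Tsk2, with wild-type skin not analysed here, and the groups differ by label in age alone. Each age had 4 skin samples, 1 of which was run on 2 arrays, which makes 10 arrays. All skin was labelled with Cy3 and set against Cy5-labelled RNA of a cell line reference named UMR, and the labels record no dye swap. The labels do not tie the samples to separate animals, and each p-value therefore reflects only the spread among these samples, part of which may be technical.

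Each value is the log2 of a probe's ratio of skin to reference. The log base is likely rather than stated, and so is the direction. The sign was turned so that skin genes read as positive, and if the other dye were the numerator every higher value would read as lower. An exact 0 was read as not measured and is called "listed at 0". Titles give each sample an ID number. The 4-month samples carried 3 numbers, with samples 2 and 3 sharing one. The 1-month samples carried 2 numbers, one for samples 1 and 2 and one for samples 3 and 4. The ages had no number in common, so age cannot be told apart from other differences between these numbers. In bulk skin, fewer hair follicle cells and less keratin RNA per cell cannot be told apart either.

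A hair shaft is built from below by dividing matrix cells of the follicle bulb, which leave the cycle, fill with keratin filaments and die as the fibre of medulla, cortex and cuticle. Hair keratin filaments pair an acidic type I chain with a basic type II chain, and keratin-associated proteins then cross-link them. Mouse follicles alternate between growth, when the shaft is made, and rest, when it is not. Among the members, Krt31 to Krt36 encode type I chains and Krt82 and Krt86 type II chains. In human hair KRT35 appears first, in the matrix and early shaft, KRT32 and KRT82 mark the cuticle, and KRT31, KRT33A, KRT33B, KRT34, KRT36 and KRT86 belong to the cortex.

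Promoters of 6 of the 10 members were found in the RefSeq promoter table of build GRCm38.p6, each running from 250 bases before to 50 bases after a start of the gene. The neighbouring genes Krt31, Krt32, Krt33b and Krt34 are shown because their promoters hold the same letters in nearly the same places. Krt36 is shown because its window holds none of those exact letters. The Krt36 window lies at a start inside the span that the RefSeq gene table gives that gene, so sequence before the outermost start is not shown. Capitals mark CTTTGAA, a form of the site bound by LEF1 and TCF factors, and TTTATG, part of the consensus of HOXC13. They also mark TATAAA, a form of the TATA box. Other forms of that box, such as the tatataag in the Krt36 window, were not searched for. The letters in capitals were chosen after the sequences had been seen and were searched on both strands. The lines read 5′ to 3′ along each gene.
Krt31 (chr11:100050502-100050801, minus strand): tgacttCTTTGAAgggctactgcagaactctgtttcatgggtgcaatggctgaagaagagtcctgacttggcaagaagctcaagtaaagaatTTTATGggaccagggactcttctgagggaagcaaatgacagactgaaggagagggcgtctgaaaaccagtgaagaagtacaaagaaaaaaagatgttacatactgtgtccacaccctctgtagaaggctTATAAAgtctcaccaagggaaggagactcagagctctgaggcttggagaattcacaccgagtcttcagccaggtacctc
Krt32 (chr11:100088220-100088519, minus strand): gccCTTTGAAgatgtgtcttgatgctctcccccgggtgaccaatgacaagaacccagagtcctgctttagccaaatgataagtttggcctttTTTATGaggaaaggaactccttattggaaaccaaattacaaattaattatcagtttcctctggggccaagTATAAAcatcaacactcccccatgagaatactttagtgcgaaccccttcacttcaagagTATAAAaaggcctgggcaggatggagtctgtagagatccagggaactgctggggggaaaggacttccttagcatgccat
Krt33b (chr11:100029819-100030118, minus strand): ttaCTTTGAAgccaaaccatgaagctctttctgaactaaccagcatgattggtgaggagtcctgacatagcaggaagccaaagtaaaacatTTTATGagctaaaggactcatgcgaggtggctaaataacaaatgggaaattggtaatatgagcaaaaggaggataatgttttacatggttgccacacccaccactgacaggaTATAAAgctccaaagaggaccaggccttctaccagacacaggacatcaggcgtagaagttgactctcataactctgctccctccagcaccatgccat
Krt34 (chr11:100041505-100041804, minus strand): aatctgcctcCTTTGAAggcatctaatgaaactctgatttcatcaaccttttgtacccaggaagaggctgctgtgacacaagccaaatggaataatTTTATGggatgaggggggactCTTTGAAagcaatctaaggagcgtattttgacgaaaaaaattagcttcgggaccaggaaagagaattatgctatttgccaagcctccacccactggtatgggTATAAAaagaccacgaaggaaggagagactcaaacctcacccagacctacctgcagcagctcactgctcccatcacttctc
Krt36 (chr11:100105577-100105876, minus strand): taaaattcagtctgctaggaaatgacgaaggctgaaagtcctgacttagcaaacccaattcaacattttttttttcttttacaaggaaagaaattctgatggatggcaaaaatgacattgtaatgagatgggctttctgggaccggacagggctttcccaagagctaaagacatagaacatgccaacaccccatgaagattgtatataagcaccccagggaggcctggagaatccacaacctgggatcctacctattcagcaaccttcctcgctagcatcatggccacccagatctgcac

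CTTTGAA began 244, 247, 247 and 240 bases before the start of Krt31, Krt32, Krt33b and Krt34, and TTTATG began 158, 158, 159 and 154 bases before it. TATAAA began 29 bases before the start of Krt31, 88 and 29 before that of Krt32, 47 before that of Krt33b and 31 before that of Krt34. Krt34 held a further CTTTGAA at 133 bases. Among the 6 promoters CTTTGAA stood in 4, against 5.14% of the 32851 mouse promoters of the table, TTTATG in 5, against 11.85%, and TATAAA in 4, against 13.62%. The remaining TTTATG promoter was that of Krt82. Another LEF1 and TCF form, CTTTGTT, stood in 0 of the 6 and in 5.85% of all. A match describes the letters in this window and not a bound site. Lef1 and Hoxc13, which encode factors that bind such letters, are described with the hair matrix regulators.

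Across all probes, arrays of the same sample correlated at 0.901 and 0.910, arrays of different samples at 0.810 to 0.906 within 4 months and at 0.752 to 0.928 within 1 month, and arrays of different ages at 0.663 to 0.811. Each array listed 26.0% to 47.4% of its 41174 probes at 0. Low signals often carried the same value to 3 decimals in many probes of an array, and values shared by over 100 probes are named where a member has one. The epidermal and skeletal muscle lists set the sign and so are no check of the tissue. The inner root sheath list, which was not used for the sign, had sample medians of 5.62 to 7.33 at 4 months and 6.07 to 8.22 at 1 month.

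Krt35, the early type I chain of the matrix and lowest shaft, was measured on every array. Its log2 ratio was 2.72, 4.87, 4.21 and 4.41 in 4-month samples 1 to 4, and 4.18, 6.38, 3.98 and 4.26 in 1-month samples 1 to 4. The ages overlapped, and the extremes were 4-month sample 1 at the low end and 1-month sample 2 at the high end. Krt35 averaged 4.05 ± 0.93 at 4 months and 4.70 ± 1.12 at 1 month (SD, n = 4 each). The difference, 4 months minus 1 month, was -0.71 ± 0.70 (SE, adjusted p = 0.587 in limma), and it did not pass. Leaving out 1-month sample 2 gave -0.19, leaving out 4-month sample 1 gave -0.21 and leaving out 1-month sample 1 gave -1.19.

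Krt32, the type I chain of the hair cuticle, had log2 ratios of 3.58, 4.95 and 4.68 in 4-month samples 1, 2 and 4, and 5.02, 5.33 and 5.05 in 1-month samples 1, 3 and 4. It was listed at 0 in 4-month sample 3, on the second array of 4-month sample 2 and in 1-month sample 2. All 3 measured 4-month samples lay below all 3 measured 1-month samples. The difference was -0.72 ± 0.40 (SE, adjusted p = 0.319), and the exact permutation p was 0.1, the smallest that 3 against 3 can give. Its type II counterpart of the cuticle, Krt82, had 0.96 and 2.78 in 4-month samples 2 and 4, and 3.67, 4.69 and 4.46 in 1-month samples 1, 3 and 4. It was listed at 0 in 4-month samples 1 and 3 and in 1-month sample 2. The value of 0.96 was shared by 572 probes of its array and comes from 1 of the 2 arrays of that sample. Both cuticle chains were therefore lower at 4 months wherever they were measured, and both lacked values in the same 4-month and 1-month sample. Krt82 had too few 4-month values for the test.

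Krt31, a type I chain of the cortex, was higher at 4 months in the samples measured, though not after quantile normalization or with zeros kept. Its log2 ratio was 3.95, 4.45 and 3.83 in 4-month samples 1, 2 and 4, and 3.58, 3.23, 3.66 and 3.78 in the 1-month samples. It was listed at 0 in 4-month sample 3. The measured samples did not overlap, with 4.08 ± 0.33 at 4 months (SD, n = 3) and 3.56 ± 0.24 at 1 month (SD, n = 4). The difference of 0.52 ± 0.27 (SE) did not pass (adjusted p = 0.276), with an exact permutation p of 0.0286, the smallest possible for 4 against 3. The permutation took no account of the ID numbers, and with these as units 2 against 3 could give no exact p below 0.1. The difference was -0.02 after quantile normalization and -0.40 with zeros kept as ratios of 0.

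Krt33a, a cortex type I chain, was measured at 8.56 and 7.90 in 4-month samples 2 and 4, and at 6.65, 4.84, 7.79 and 7.77 in the 1-month samples. It was listed at 0 in 4-month samples 1 and 3 and on the second array of 4-month sample 2. The measured 4-month samples thus lay above every 1-month sample while the other 4-month samples held no value, and the gene was not tested.

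Krt33b, its close relative, had 2 probes that did not tell the same story. The first had 6.58 and 6.11 in 4-month samples 2 and 4 and 0 in samples 1 and 3, against 5.70, 2.92, 6.18 and 6.16 in the 1-month samples. The second had -0.76, 1.52, 1.27 and 4.36 at 4 months and 3.23, 2.47, 4.84 and 4.55 at 1 month. In that probe 4-month sample 4 stood among the 1-month samples and the other 4-month samples lay below all of them. Of those low values, -0.76 was shared by 696 probes of its array and 1.27 by 247, and the second array of 4-month sample 2 held 0.947, shared by 526. Over the 6 samples with both probes they correlated at 0.29 (Pearson) and 0.14 (Spearman), a description only. Only the second probe had enough values for the test, and its difference of -2.14 ± 1.03 (SE, adjusted p = 0.241) did not pass. Without 4-month sample 4 it was -3.17 and passed (adjusted p = 0.02), and without 4-month sample 1 it was -1.21 (adjusted p = 0.463). Both probes entered the gene value on means per ID number, where the difference was -1.27. Both also entered when 2 values per age were enough, where it was -1.56. With values shared by over 100 probes read as not measured, a choice made after seeing the data, Krt33b could not be tested.

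Krt34, a further cortex type I chain, had 4.96, 6.59 and 5.81 in 4-month samples 1, 2 and 4, and 6.0, 5.66 and 5.90 in 1-month samples 1, 3 and 4. It was listed at 0 in 4-month sample 3, in 1-month sample 2 and on the second array of both samples that had one. The ages overlapped, and the difference was -0.08 ± 0.43 (SE, adjusted p = 0.936). It was 0.10 with zeros kept. Krt36, a type I chain of the cortex, had lower means at 4 months on both of its probes. The first had 2.20, 1.03 and 2.02 in 4-month samples 1, 2 and 4, and 2.88, 1.88, 4.02 and 3.78 in the 1-month samples. The second had 2.81, 1.07 and 3.19 in the same 4-month samples, and 3.29, 3.13, 4.18 and 3.64 at 1 month. Both were listed at 0 in 4-month sample 3. The second array of 4-month sample 2 held 0.55 on both probes, a value shared by 1310 probes, and its first array held 1.52 on the first probe, shared by 206. The 2 probes correlated at 0.86 over 7 samples, as a description.

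The gene value of Krt36 was 2.05 ± 0.87 at 4 months (SD, n = 3) and 3.35 ± 0.70 at 1 month (SD, n = 4). Its difference of -1.30 ± 0.51 (SE) did not pass (adjusted p = 0.16), although Krt36 was the 1 member whose unadjusted p in limma lay below 0.05. Krt86, the type II chain of the cortex, had 1.94, 3.85 and 5.09 in 4-month samples 1, 2 and 4, and 4.61, 1.94, 5.35 and 5.39 in the 1-month samples. It was listed at 0 in 4-month sample 3. The low value of each age was a repeated one, shared by 87 probes in 4-month sample 1 and by 58 in 1-month sample 2. The difference of -0.70 ± 1.04 (SE, adjusted p = 0.743) did not pass. Leaving out 1-month sample 1 gave -0.21, leaving out 1-month sample 3 or 4 gave -0.37 and leaving out 1-month sample 2 gave -1.42.

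**Figure D1:**
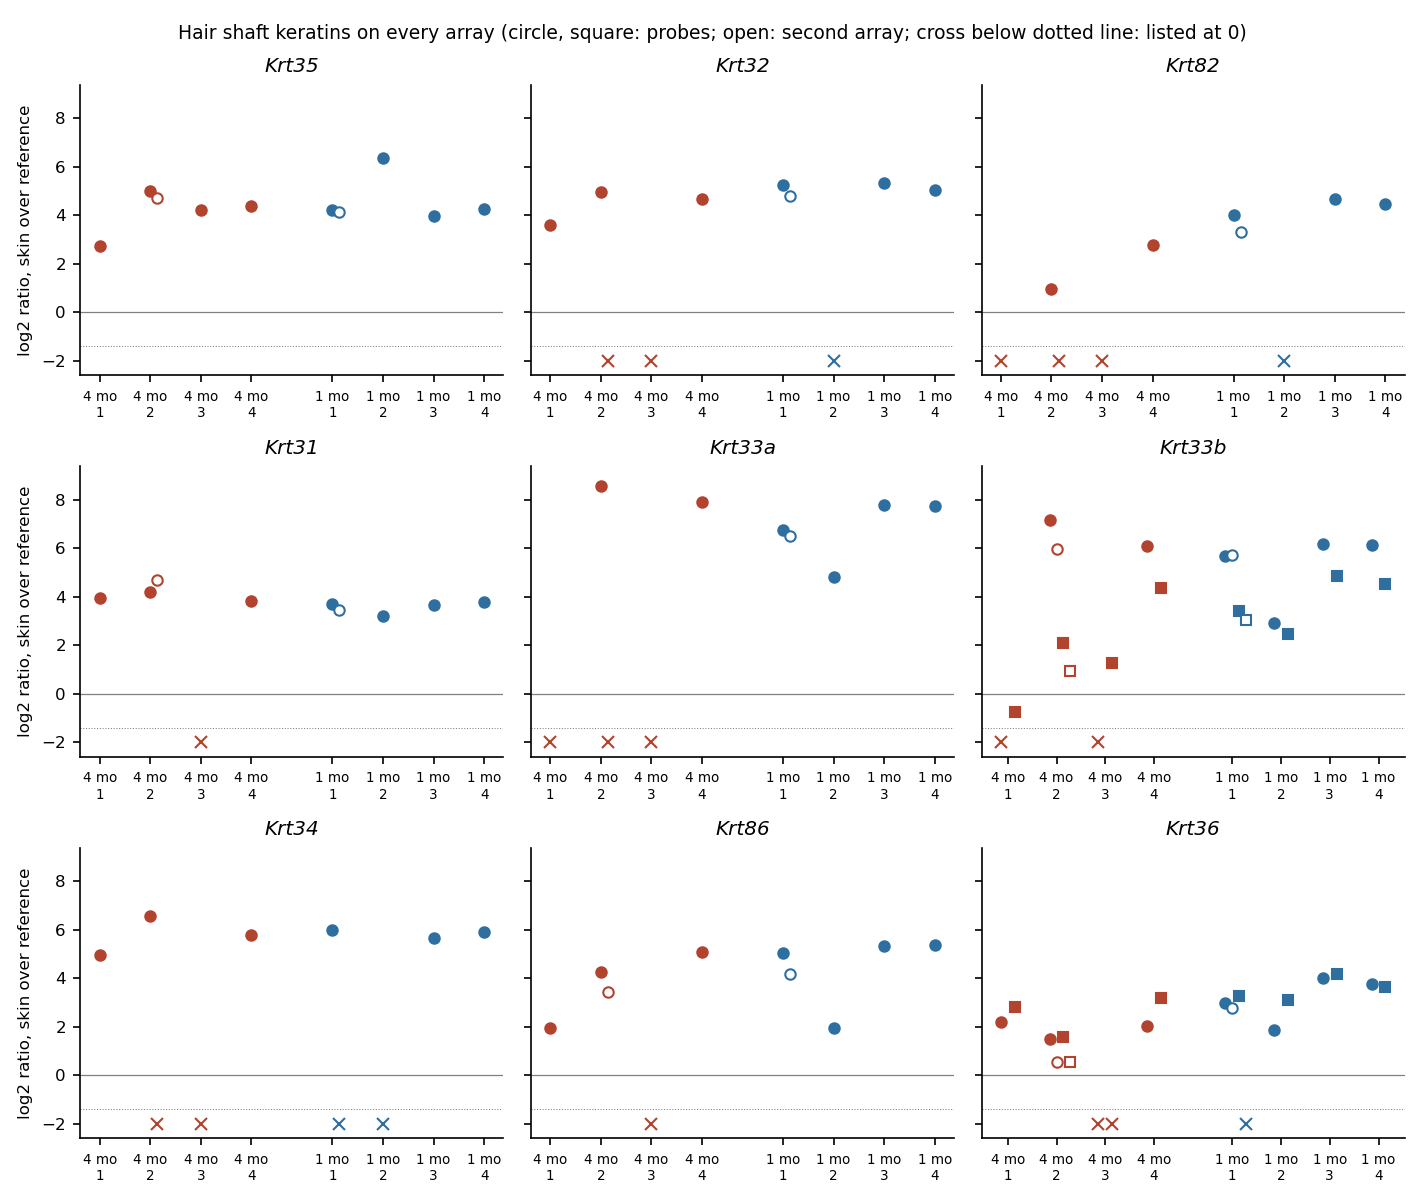
Log2 ratio of skin over reference (y axis) of the 9 hair shaft keratins with a probe, on each array, with 4-month samples (red) left of 1-month samples (blue). Circles and squares are the probes of a gene, open symbols the second array of a sample, and crosses under the dotted line values listed at 0. In 4-month sample 3 only Krt35 (4.21) and 1 probe of Krt33b (1.27) have a value.

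The plot of the members on each array shows wide differences between samples of 1 age. 4-month sample 3 listed 9 of the 11 member probes at 0 (81.8%). On that array 35.8% of all probes were at 0, as were 21.2% of the 872 other probes that were high on the remaining arrays (a median log2 ratio of at least 3 there). The second array of 4-month sample 2 listed 4 member probes at 0, while its first array listed none. 4-month sample 1 and 1-month sample 2 listed 3 each, and the second array of 1-month sample 1 listed 2. The other arrays listed none.

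**Figure D2:**
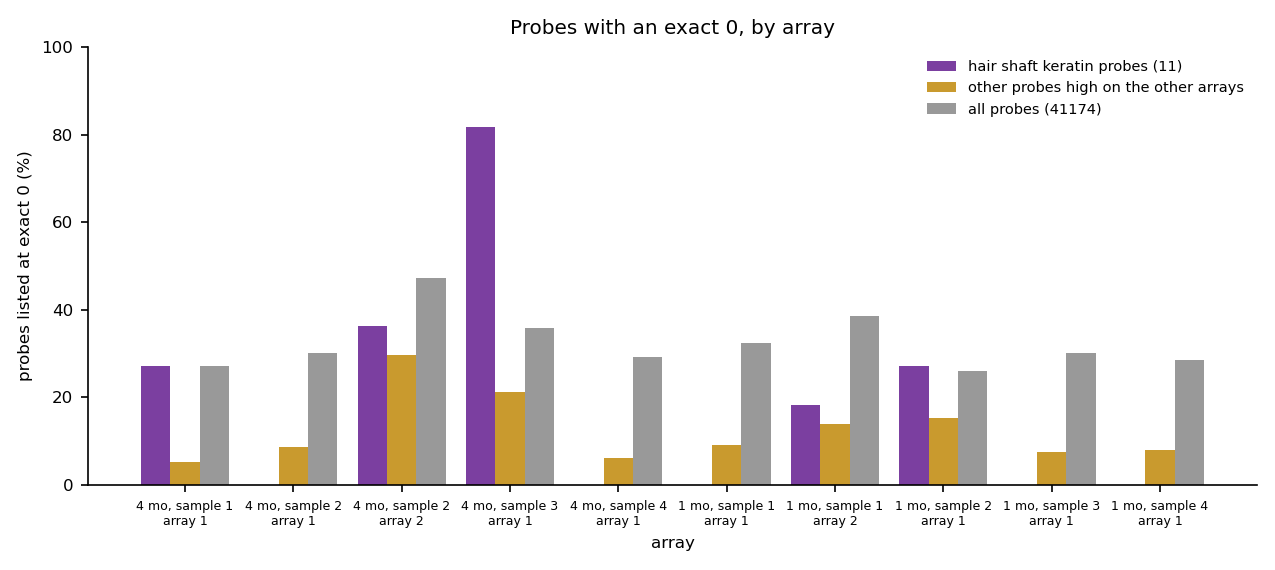
Percent of probes with an exact 0 (y axis) on each array (x axis, 4-month arrays left of 1-month arrays), for the 11 hair shaft keratin probes, for other probes that were high on the remaining arrays, and for all 41174 probes. The member bar of 4-month sample 3 reaches 81.8%, and 5 arrays have no member probe at 0.

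Within 4 months, sample 4 lay mostly inside the 1-month range, samples 1 and 2 lay mostly outside it, and sample 3 had too few values to place. Set against the range of the 1-month samples, sample 4 had 7 of its 11 member probes inside, 2 above and 2 below. Sample 1 had 1 inside, 1 above, 6 below and 3 at 0, and sample 2 had 2 inside, 4 above and 5 below. Sample 3 had 1 inside, 1 below and 9 at 0. The share of all probes outside the 1-month range was not counted, so these numbers do not set the members apart from other genes. Most of the values measured in 4-month sample 1, 7 of 8, were shared by 10 or more probes of its array, as were 6 of 8 in 1-month sample 2. Over all probes measured on these 2 arrays the share was 62.65% and 67.15%, so the member counts were not far from it. Among all values of 3 or more it was 14.38% and 5.54%. In 1-month samples 3 and 4, 0 of 11 member values were shared in this way, against 64.84% and 67.07% of all measured values.

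Within 1 month, samples 3 and 4 lay close together and sample 2 stood apart. Krt86 averaged 5.37 over samples 3 and 4, against 3.27 over samples 1 and 2, and Krt33a 7.78 against 5.75. Krt35 ran opposite, with 4.12 over samples 3 and 4 and 5.28 over samples 1 and 2. Of the pair, sample 1 had 4.61 for Krt86, 6.65 for Krt33a and 4.18 for Krt35, and sample 2 had 1.94, 4.84 and 6.38. Repeat arrays of 1 sample gave the technical spread. The 9 member probes on both arrays of 1-month sample 1 differed by 0.03 to 0.88 (median 0.28), and the 7 on both arrays of 4-month sample 2 by 0.29 to 1.20 (median 0.97). The median over all probes was 0.34 and 0.32, so the members repeated less closely than other probes in 4-month sample 2.

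Between ages, no member passed the test. Of the 7 tested members, 6 were lower at 4 months and 1 (Krt31) was higher, with the sign of Krt31 and Krt34 turned under an alternative, and 0 passed at an adjusted p of 0.05 in limma (1 at an unadjusted p under 0.05). Over all 13501 genes 7.25% passed in either direction, 3.06% as lower at 4 months, and 24.3% had an unadjusted p under 0.05. The median difference of the members was -0.71, against 0.03 over all genes, of which 47.7% lay below 0. The ages did not overlap in 2 members, Krt31 and Krt32, against 21.1% of all genes. The other exact permutation p-values were 0.114 for Krt33b and Krt36, 0.514 for Krt86, 0.543 for Krt35 and 0.8 for Krt34.

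Without 1-month sample 2 and 4-month sample 3, a choice made after seeing the data, 0 of 7 members passed and the median was -0.72. Krt35 was then -0.14 and Krt86 -1.44. Over the single samples left out, the median ran from -2.001 to -0.70, but over 2 to 7 members with enough values. The -2.001, without 4-month sample 4, rests on 2 members. After quantile normalization the median was -1.24.

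**Figure D3:**
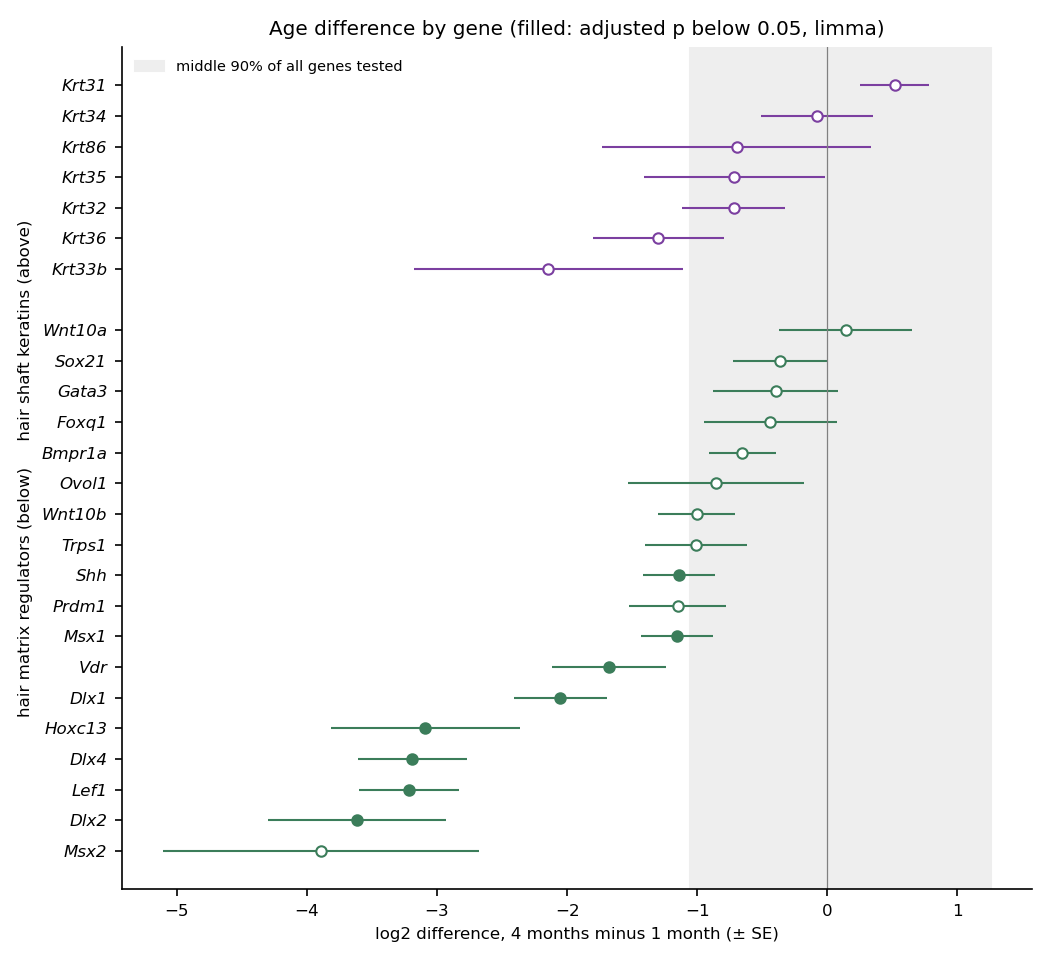
Difference in log2 ratio, 4 months minus 1 month, with its SE (x axis), for the 7 tested hair shaft keratins (purple, above) and the 18 tested hair matrix regulators (green, below). Filled points have an adjusted p below 0.05 in limma, and the grey band spans the 5th to the 95th percentile of all genes tested (-1.05 to 1.26). No keratin is filled, and 8 regulators are, all to the left.

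Hair matrix regulators, the transcription factors and signals that drive the cells that make the shaft, are the related list with members past the age test. Of 18 tested, 17 were lower at 4 months and 8 passed as lower, with a median of -1.14. Over all genes tested 47.7% lay below 0 and 3.06% passed as lower. The list was chosen with earlier results of these data known, so the contrast is a description. Lef1, the Wnt transcription factor, had -2.74, -1.01, -1.66 and -1.39 at 4 months and 1.44, 1.62, 1.22 and 1.57 at 1 month. Lef1 fell by 3.22 ± 0.38 (SE, adjusted p = 0.00464 in limma). Hoxc13, the homeobox factor known to act on hair keratin promoters, had -2.37, 0.76, 0.49 and 0.34 at 4 months and 2.53, 1.73, 3.34 and 3.53 at 1 month. Hoxc13 fell by 3.09 ± 0.73 (SE, adjusted p = 0.0362). Its value in 4-month sample 1, -2.371, was also that of Dlx4 to 3 decimals, as was often so for low signals on these arrays. For Lef1 and Hoxc13 all 4-month samples lay below all 1-month samples, 4-month sample 4 and 1-month sample 2 included.

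The homeobox genes Dlx2 (-3.62, adjusted p = 0.0177) and Dlx4 (-3.19, adjusted p = 0.00702) fell as well. Msx2, another homeobox gene of the matrix, had 0.63, 1.28, 0.05 and 1.58 at 4 months and 5.80, 1.16, 5.90 and 6.36 at 1 month. Here 1-month sample 2 lay among the 4-month samples, and the difference of -3.89 did not pass (adjusted p = 0.0859). It passed without 1-month sample 2 (-5.06, adjusted p = 0.00766), without that sample and 4-month sample 3 (-4.84, adjusted p = 0.00429) and without the block (-3.92, adjusted p = 0.0316). Wnt10a, a Wnt ligand, was at 0.14 (adjusted p = 0.902). Calls in this list numbered 2 when 1-month sample 1 was left out, 5 when 4-month sample 1 was, and 4 when 4-month sample 2 or 3 was. The number was 2 with zeros kept and 0 on means per ID number. With values shared by over 100 probes read as not measured, 15 regulators could be tested and 6 passed, and Hoxc13 and Dlx4 could not be tested. The call of Hoxc13 was lost when any of 1-month samples 1, 3 and 4 and 4-month samples 2 and 3 was left out (adjusted p between 0.0526 and 0.114), and that of Dlx2 when 1-month sample 1 was (0.0594).

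Markers of dividing cells were lower at 4 months in 4 of 4 tested genes, and all 4 passed. Their median per sample ran from -3.42 to -1.96 at 4 months and from -0.63 to -0.18 at 1 month. Of 3 melanocyte genes tested 2 passed as lower, with sample medians of 0.15 to 1.18 at 4 months and 1.39 to 3.45 at 1 month. The share of all genes tested that passed as lower was 3.06%. The part of dividing cells or melanocytes in the keratin values was not tested.

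Other shaft genes were set beside the members. Krt87, a further type II hair keratin, had 1.94, 4.00, 2.16 and 4.33 at 4 months and 4.38, 1.41, 4.57 and 4.64 at 1 month (difference -0.64, adjusted p = 0.743). Its low values stood in 4-month samples 1 and 3 and in 1-month sample 2. That of 4-month sample 1, 1.935, was the repeated value that Krt86 also held there, shared by 87 probes. Of 42 keratin-associated protein genes, all with a probe, 19 could be tested. Of these 12 were lower and 7 higher, and limma called 0 of them (1 had an unadjusted p below 0.05). Their median was -0.45. The lowest difference was that of Krtap31-1 (-1.53) and the highest that of Krtap16-3 (1.35). Krtap16-3 had 3.94, 6.10, 3.97 and 6.01 at 4 months and 2.60, 0.24, 5.85 and 5.92 at 1 month.

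Enzymes and proteins that work beside the shaft keratins had 7 tested genes of 10, all lower at 4 months, with a median of -0.93 and 0 past the test (1 at an unadjusted p under 0.05). Padi3, the peptidylarginine deiminase that modifies shaft and root sheath proteins, had 0.32, 3.59, 1.84 and 4.04 at 4 months and 4.59, 4.16, 5.21 and 5.26 at 1 month. All 4-month samples lay below all 1-month samples, but the difference of -2.39 ± 0.82 (SE) did not pass (adjusted p = 0.107). It passed without 4-month sample 4 (-2.97, adjusted p = 0.0246). Selenbp1 had the smallest difference (-0.04).

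Layers around the shaft had another order of samples. The median of the inner root sheath list was 5.62, 6.42, 7.33 and 6.41 in the 4-month samples and 6.07, 8.22, 6.79 and 6.99 in the 1-month samples. The epidermal list had 4.18, 4.79, 6.12 and 5.07 at 4 months and 4.17, 6.15, 4.70 and 4.95 at 1 month. Within each age both lists were highest in the sample that lacked most shaft keratin values, 4-month sample 3 and 1-month sample 2. The inner root sheath list also lacked most values there, with 3 of its 6 probes at 0 in each, against 0 to 2 in the other samples. Its medians in 4-month sample 3 and 1-month sample 2 therefore rest on the probes left. The skeletal muscle list was also highest in 4-month sample 3 and 1-month sample 2, at 6.75 and 6.43. The shaft keratin medians were 2.72, 4.45, 2.74 and 4.41 at 4 months, where that of sample 3 rests on 2 genes, and 4.18, 2.50, 4.84 and 4.55 at 1 month. The part of the tissue makeup of a sample in its keratin values was not tested.

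**Figure D4:**
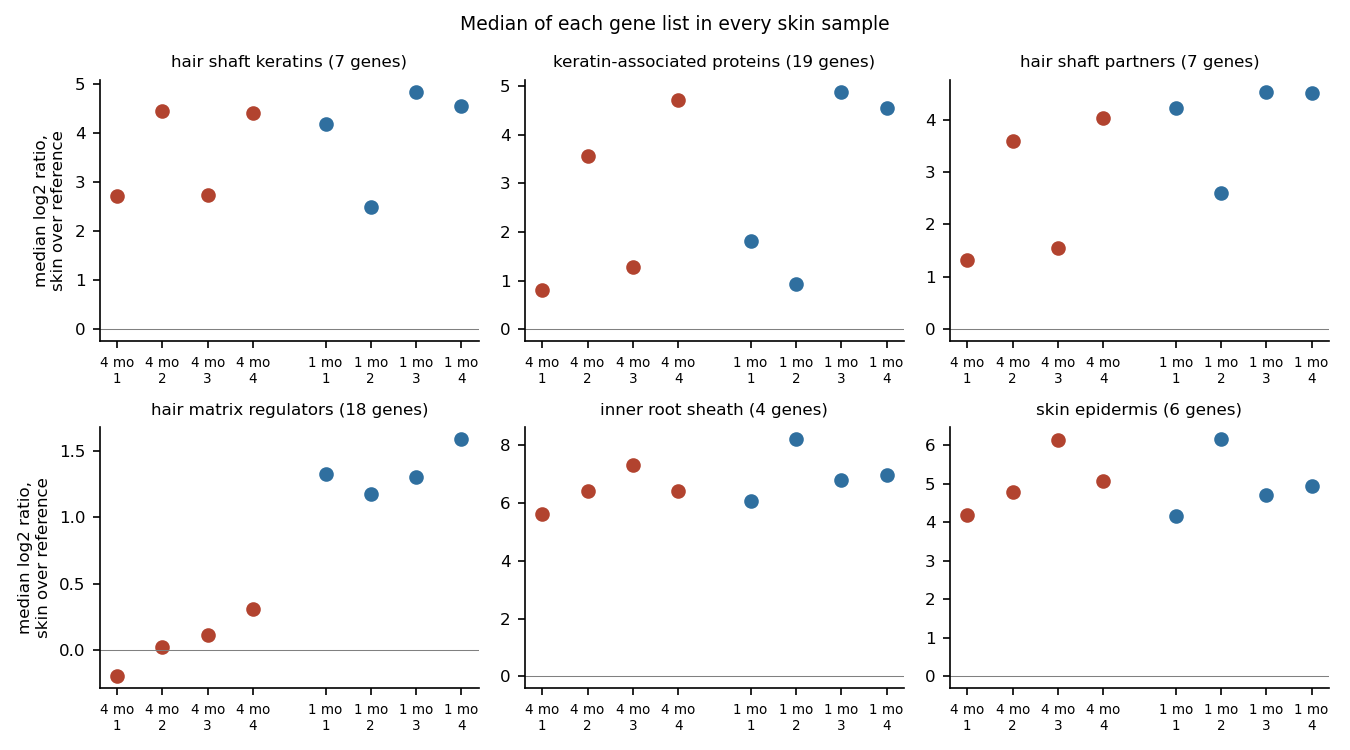
Median log2 ratio of skin over reference (y axis) of 6 gene lists in each skin sample, with 4-month samples (red) left of 1-month samples (blue). Shaft keratins, keratin-associated proteins and partners are low in 4-month samples 1 and 3 and in 1-month sample 2. Keratin-associated proteins are also low in 1-month sample 1 (1.82, against 4.88 and 4.54 in 1-month samples 3 and 4). Regulators separate the ages, at -0.20 to 0.31 and 1.18 to 1.59.

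Krt33b and Krt35 were the 2 members with a gene value in all 8 samples. They correlated with each other at only 0.28 (Pearson) and 0.05 (Spearman), so their mean does not stand for the members as a set. The genes whose 8 values were most like their mean, by Pearson correlation over the 8 samples, were Rcc1 (0.98), Urb2 (0.98), Adam12 (0.98), Zfp335 (0.97), Cracdl (0.97), Pkp3 (0.97), Dctd (0.96) and Tiam2 (0.96). These are descriptions picked as the highest of the other genes measured in every sample, leaving out genes with model or clone names. The samples share ages, ID numbers and a reference. Correlations among the members varied. Krt86 and the second Krt33b probe correlated at 0.84 over 7 samples and Krt33a and the first Krt33b probe at 0.96 over 6, while Krt35 and the first Krt33b probe were at -0.87 over 6. The Spearman values of these pairs were 0.93, 0.83 and -0.26. In the last pair 1-month sample 2 held both the highest Krt35 value and the lowest Krt33b value. Probe sequences were not used here, so signal shared between close relatives such as Krt31, Krt33a, Krt33b and Krt34 was not tested.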

How the data were processed

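Skin RNA of Tsk2 mice was isolated with a Qiagen RNeasy fibrous kit and 200 ng was labelled with an Agilent Quick-Amp kit, per the labels' protocols. The authors deposited 1 log2 ratio per probe and array. How scans were background-corrected and normalized is not given in the sources used here. Neither the log base (log2) nor the numerator is named, so both are likely rather than stated. The sign was turned after epidermal and muscle lists were found on one side of 0, and dividing-cell and B cell lists on the other, on 10 of 10 arrays. Of 41174 probes, 32664 had 1 symbol in the platform annotation, 45 several and 8465 none. Only probes with 1 symbol were used.

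Exact zeros were read as missing and repeat arrays averaged, leaving 8 samples. Measured values per array numbered 21665 to 30425, and the number of arrays limits the precision. A probe and a gene needed values in at least 3 samples of each age. Probes of a gene were averaged, and a probe and sample fit filled single missing values. Ages were compared with limma 3.58.1 (statmod 1.5.0, R 4.3.3), with the ID number as a random block (consensus correlation 0.313), so a fitted difference can depart slightly from the difference of means. P-values were adjusted over all genes by Benjamini-Hochberg. Exact permutation tests were two-sided and took no account of the ID number. The fit was tested on simulated data. The members, lists and promoter letters were chosen with earlier results of these data known. Named genes were all members, the extremes and calls of each related list (at most 6 by size), and the 8 genes most like the mean of Krt33b and Krt35. Alternatives covered zeros kept, scaling, the block, ID means, ID suffix, single probes, first arrays, the filter and left-out samples.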

Additional observations from a re-analysis of the deposited data

Results flagged for a closer look

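In 1-month sample 2, Krt35 had a log2 ratio of 6.38, far above the other 1-month samples (3.98 to 4.26), and the first probe of Krt33b had 2.92, far below the others (5.70 to 6.18). The gap to the nearest sample took 0.882 and 0.851 of the range of the 4 samples, more than the critical value of Dixon's test for an outlying sample. Among the 10 groups of 4 samples tested, chance alone would mark about 1 in 20. The same sample thus held the highest Krt35 value and the lowest Krt33a and Krt33b values of its age.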

How the results depend on the processing

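Over 19 alternatives, 0 hair shaft keratins passed in all but 1, and the median stayed below 0 in all. Over the single samples left out, the count of keratins ran from 0 to 1 and the median from -2.001 to -0.70. The 1 call was Krt33b, without 4-month sample 4, when 2 members could be tested. Leaving out any of 4-month samples 1, 2 and 4 left 2 members with enough values. Genes past the test numbered 979, but 2022 without the block, 581 with the ID suffix as a covariate and 0 on means per ID number (2 against 3, limma, 2568 at an unadjusted p under 0.05), and ran from 157 to 2172 over the left-out samples. Zeros kept gave 656 calls. Regulators lower past the test numbered 8, but 2 with zeros kept, 0 on ID means, 4 with the suffix and 5 with first arrays, and ran from 2 to 8 over the left-out samples. The direction turned for Krt31 with zeros kept (-0.40) and after quantile normalization (-0.022) and for Krt34 with zeros kept (0.10). Over the left-out samples Selenbp1 ran from -0.39 to 0.41 and Wnt10a from -0.45 to 0.48. Where these values moved, the cause was not tested. With 2 values per age allowed, Krt33a was 1.47 (adjusted p = 0.356) and Krt82 -2.35 (adjusted p = 0.0787), and with zeros kept Krt33a was -3.61. With both samples that stood apart left out, 831 genes passed, and with values shared by over 100 probes read as missing 1099. No paired analysis was possible because replicate numbers were given in accession order and no ID number occurred at both ages. In 4-month sample 3, 2 of 11 member probes had values.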
